A study of Mus musculus with 12 samples.

Results

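The control cortices were the 6 libraries, of 12 in the series, labelled as coming from mice without Cre. They came from 2 breeding lines. The stated genotype was Olig1+/+;Dnmt1flox/flox for the 3 Dnmt1 controls and Olig1+/+;Dnmt3aflox/flox for the 3 Dnmt3a controls, and 1 of the latter, Dnmt3a control 2, had a Dnmt3a level near that of the CKO libraries. All were littermates of conditional knockout (CKO) mice, on a C57BL/6 background, and were dissected at postnatal day 16. The other 6 libraries were the Dnmt1 CKO (Olig1cre/+;Dnmt1flox/flox) and Dnmt3a CKO (Olig1cre/+;Dnmt3aflox/flox) cortices, 3 of each, in which Cre driven from the Olig1 locus acts in the oligodendrocyte lineage. The members were picked by genotype label and not by an expression value, though earlier results of these data were known when this part was chosen. The comparison addresses what differs between 2 sets of controls that serve as separate baselines. Line, litter and breeding history coincide here and cannot be told apart.

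Dnmt1 copies DNA methylation onto new strands after replication, and Dnmt3a writes it de novo. A floxed allele carries recombination sites around part of a gene, and without Cre it is usually meant to work like the wild type allele. At this age the mouse cortex is laying down myelin, the lipid-rich sheath that oligodendrocytes wrap around axons, so myelin transcripts are abundant and climb steeply with time. Whole cortex is a mixture of neurons, glia, vessels and whatever tissue adheres at dissection. In such bulk samples fewer cells of a type and less RNA per cell cannot be told apart.

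Expression was given in FPKM, fragments scaled to transcript length and to the mapped fragments of the library. Differences were taken on log2(FPKM + 0.1), Dnmt1 controls minus Dnmt3a controls, so that a positive value means higher in the Dnmt1 controls. The scale understates the change of low genes. A row entered the limma test if its mean across the series reached 0.5 FPKM, which left 14115 rows. A row was called at a Benjamini-Hochberg adjusted p under 0.1.

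Between the control lines 1 row of 14115 was called (0.00708%, limma with Benjamini-Hochberg adjustment). Without adjustment, 1092 rows had a p under 0.05 (7.74%), and 764 of these were higher (5.41% of all rows) and 328 lower (2.32%) in the Dnmt1 controls. The share that was higher was 70.0%, but it was 51.2% with median ratio scaling and 55.6% with quantile normalization. The median difference over all rows was 0.02. The values of the 2 groups did not overlap for 1775 rows (12.6%), of which 1213 were higher (8.59%) and 562 lower (3.98%) in the Dnmt1 controls. Leaving out each library in turn gave 1 to 4 called rows, with 2 without Dnmt1 control 2, Dnmt1 control 3 or Dnmt3a control 2 and 4 without Dnmt3a control 3. The row called with all libraries was among them only without Dnmt1 control 2 or Dnmt1 control 3. The rows with an unadjusted p under 0.05 numbered 673 without Dnmt3a control 2. Across the 13907 rows above 0 in all 6 libraries, log2 values correlated with r between 0.988 and 0.992 within a line (6 pairs) and between 0.986 and 0.993 across lines (9 pairs). The median pooled SD within a line was 0.09 on the log2 scale, and the median absolute difference between the line means was 0.06.

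Some libraries stood apart from the rest of their group. Summed FPKM was between 342274 and 357764 in 5 control libraries and 417856 in Dnmt3a control 3, where a single small nucleolar RNA row, Snord37, held 9.33% of it. Replicate 3 of each line had Xist, the RNA that coats the inactive X chromosome, at 49.4 FPKM, while the other 4 libraries had at most 0.0775 FPKM. The Y-linked genes Ddx3y and Eif2s3y were at 10.9 to 12.8 FPKM and 18.5 to 22.4 FPKM in those 4 libraries and at most 0.0581 FPKM in both replicates 3. The 2 groups thus had the same makeup in this respect.

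The targeted genes were measured first. Dnmt1 was at 10.6, 10.2 and 9.78 FPKM in the Dnmt1 controls and at 9.83, 9.95 and 10.03 FPKM in the Dnmt3a controls. The groups overlapped, with a difference of 0.04 ± 0.04 (SE, n = 3 and 3, limma adjusted p = 0.872). Dnmt3a was at 32.8, 30.2 and 31.0 FPKM in the Dnmt1 controls. It was at 31.1, 16.9 and 28.7 FPKM in the Dnmt3a controls, and the low value belonged to replicate 2. The Dnmt3a CKO libraries were at 13.6, 14.2 and 15.4 FPKM, so the library labelled Dnmt3a control 2 lay nearer to them than to the other controls for this gene. Its genotype could not be checked from these values and its label is in doubt, so several results that it moves are also given without it. Its Olig1 level went with the controls. Olig1, a transcription factor of the oligodendrocyte lineage and the gene that carries the Cre insertion in CKO mice, was at 49.8 FPKM there, against 42.0 to 50.9 FPKM in the other 5 controls and 18.4 to 38.8 FPKM in the 6 CKO libraries. The difference in Dnmt3a between the lines was 0.34 ± 0.23 (SE, limma adjusted p = 0.779), and 0.07 without that library (limma adjusted p = 0.911). Olig1 differed by -0.03 ± 0.08 (SE, limma adjusted p = 0.96), and the sign turned when either Dnmt1 control 3 or Dnmt3a control 2 was left out.

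**Figure D1:**
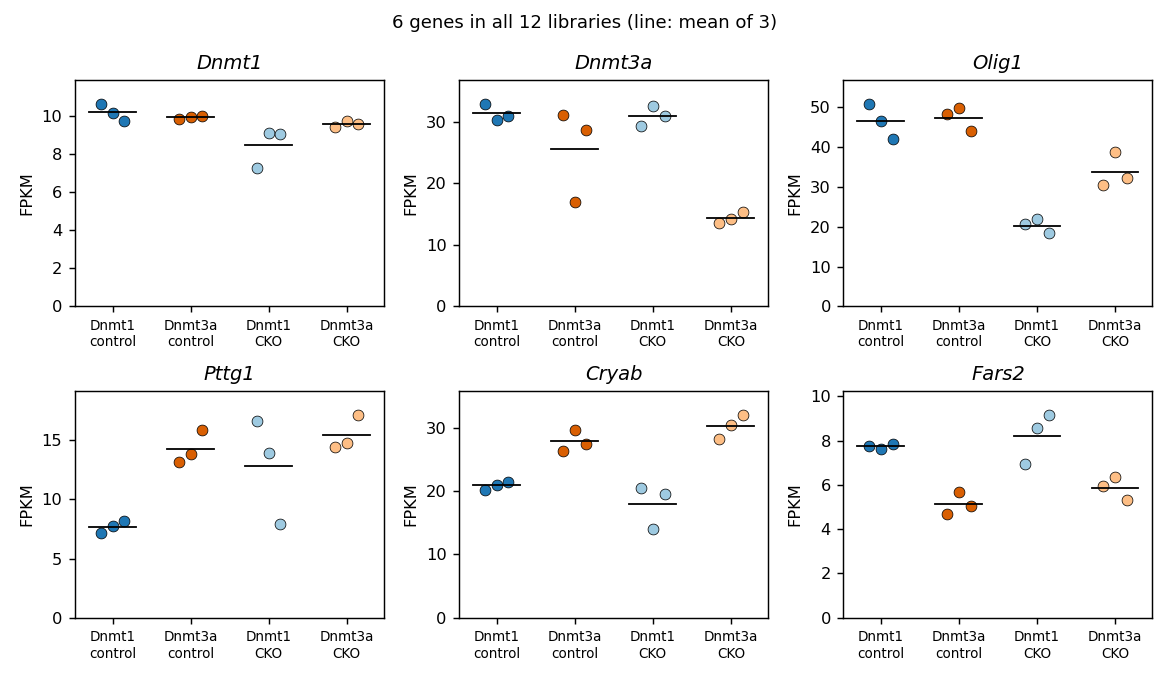
FPKM of 6 genes in all 12 libraries, with a point per library and a line at the mean of 3. Dnmt3a control 2 sits at 16.9 FPKM for Dnmt3a, near the Dnmt3a CKO libraries, and at 49.8 FPKM for Olig1, among the controls, while Pttg1, Cryab and Fars2 separate the 2 control groups.

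Of 17 measured genes that write, erase or read DNA methylation, none was called (0 of 17), none had an unadjusted p under 0.05 (0 of 17), and the median difference was 0.04, against 0.02 over all rows. Mbd3, of the methyl-DNA binding domain family, was at 26.3 to 30.7 FPKM over the 6 libraries. The oxidases Tet1, Tet2 and Tet3, which start the removal of methyl groups, were at 3.06 to 3.49 FPKM, 4.70 to 5.28 FPKM and 10.5 to 12.03 FPKM. Uhrf1, which brings Dnmt1 to replicating DNA, was at 0.432 to 0.583 FPKM. In each of these 5 genes the lines overlapped.

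The row that was called was Snora43, an H/ACA box small nucleolar RNA, a class that guides pseudouridine formation in other RNAs. It was at 6.78, 3.75 and 10.5 FPKM in the Dnmt1 controls and listed at 0 in all 3 Dnmt3a controls (limma adjusted p = 0.0388). No fold is given against a group at 0. The CKO libraries did not follow their lines: the Dnmt1 CKO values were 0, 9.22 and 3.57 FPKM and the Dnmt3a CKO values 3.16, 0 and 0 FPKM. The call was lost with a pseudocount of 1 (limma adjusted p = 0.445), without Dnmt1 control 1 and without any single Dnmt3a control. Over all alternatives its limma adjusted p ran from 0.00199 to 0.445. RNAs of this class mostly lack a polyA tail. Its sequence is shown because it was the single row past the threshold. It lies at chr2:26637847-26637985 on the minus strand in GENCODE M21 (GRCm38), and the capitals mark the ACA box, 3 bases from the 3′ end.
Snora43: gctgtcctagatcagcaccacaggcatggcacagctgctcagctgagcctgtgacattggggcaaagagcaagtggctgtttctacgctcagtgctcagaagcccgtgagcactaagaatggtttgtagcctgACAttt

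The rows next in line were not called. In the Dnmt1 controls the 4 with the smallest p among higher rows were Gm10012, Neo1, Fars2 and 2310009A05Rik. Fars2, a mitochondrial phenylalanine tRNA synthetase, was at 7.75, 7.64 and 7.85 FPKM in the Dnmt1 controls and at 4.69, 5.66 and 5.04 FPKM in the Dnmt3a controls. The groups were far apart relative to their spread, with a difference of 0.59 ± 0.08 (SE, limma adjusted p = 0.445), and the CKO cortices differed by 0.47 in the same direction. Neo1, which encodes the netrin and RGM receptor neogenin, was at 19.1, 20.3 and 20.9 FPKM against 16.2, 16.0 and 15.7 FPKM, a difference of 0.33 ± 0.04 (SE). In the CKO cortices Neo1 differed by 0.10 and the libraries overlapped.

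The 5 lower rows with the smallest p were Pttg1, Emilin2, Cryab, Clec16a and Hist1h4h. Pttg1, securin, which restrains the separation of sister chromatids, was at 7.15, 7.79 and 8.17 FPKM in the Dnmt1 controls and at 13.2, 13.8 and 15.8 FPKM in the Dnmt3a controls. This was a difference of -0.88 ± 0.08 (SE, limma adjusted p = 0.365). In the Dnmt1 CKO cortices Pttg1 was at 16.6, 13.9 and 7.89 FPKM, so 1 library lay at the level of the Dnmt1 controls and the others at the level of the Dnmt3a line, where the CKO values were 14.5, 14.8 and 17.1 FPKM. Pttg1 was called when limma's robust option was used (adjusted p = 0.00485) and when rows listed at 0 were left out (adjusted p = 0.0261). Cryab, the small heat shock protein αB-crystallin, which oligodendrocytes and astrocytes express, was at 20.2, 21.04 and 21.5 FPKM against 26.4, 29.7 and 27.5 FPKM. The difference was -0.41 ± 0.05 (SE, limma adjusted p = 0.445). Emilin2, an extracellular matrix glycoprotein, was at 0.371, 0.391 and 0.303 FPKM against 0.633, 0.625 and 0.629 FPKM, and its CKO libraries differed by -0.72. The histone gene Hist1h4h was at 0.415, 0.403 and 0.330 FPKM against 0.926, 0.675 and 0.888 FPKM. With 3 libraries a side, the exact two-sided permutation test gave 0.1 for each of these rows, the smallest p that this design allows.

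Myelin and mature oligodendrocyte genes formed the list with the lowest median. All 22 members had lower means in the Dnmt1 controls, with a median difference of -0.33 (median over all rows 0.02). None was called (0 of 22), and 16 of 22 had an unadjusted p under 0.05, where 2.32% of all rows were lower at that level. Of the 22, 18 did not overlap between the lines, where 3.98% of all rows were lower without overlap. The list's summed level was 2494, 2371 and 2158 FPKM in the Dnmt1 controls and 2905, 3241 and 2727 FPKM in the Dnmt3a controls. Every Dnmt1 control thus lay below every Dnmt3a control. Striatal, choroid plexus and immediate early sums, given further on, overlapped between the lines, while vessel and blood sums were higher in the Dnmt1 controls. The part of dissection in the myelin difference was not tested. Leaving out each library in turn kept the median between -0.37 and -0.26 and the number with an unadjusted p under 0.05 between 13 and 18. Without Dnmt3a control 2, which had the highest sum, these were -0.26 and 14.

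**Figure D2:**
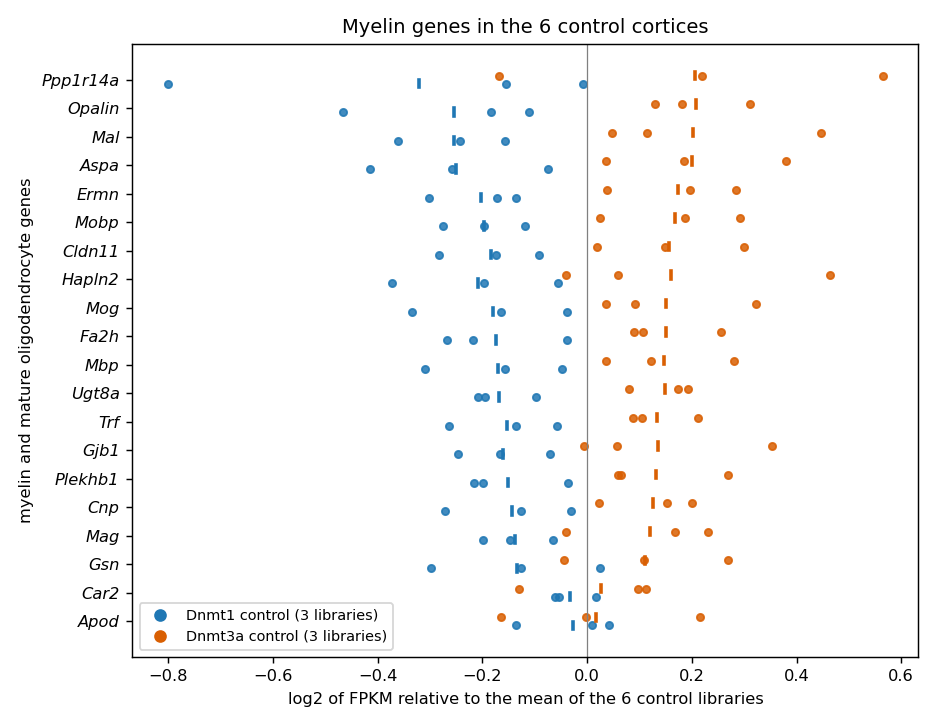
Log2 of FPKM relative to the mean of the 6 control libraries for 20 of the 22 myelin genes, with a point per library and a bar at the line mean. For 16 of these every Dnmt1 control lies left of every Dnmt3a control, and Gsn, Ppp1r14a, Car2 and Apod overlap.

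The structural proteins of the sheath carried most of the level. Mbp, myelin basic protein, which compacts the membrane on its inner side, was the highest protein-coding row of the controls. It was at 1189, 1103 and 991 FPKM in the Dnmt1 controls and at 1336, 1493 and 1260 FPKM in the Dnmt3a controls, a difference of -0.32 ± 0.14 (SE, limma adjusted p = 0.67). Cnp, an enzyme that keeps cytoplasmic channels open in the sheath, was at 167, 157 and 141 FPKM against 190, 196 and 174 FPKM. Mobp, a small compaction protein, was at 91.9, 87.1 and 82.6 FPKM against 114, 122 and 102 FPKM. Mag and Mog, surface proteins of the sheath, differed by -0.26 and -0.33.

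Genes for lipid synthesis, junctions and membrane traffic had differences of like size. Ugt8a, which makes the galactolipids of myelin, had the smallest p of the list. It was at 35.2, 32.9 and 32.6 FPKM in the Dnmt1 controls and at 42.4, 43.0 and 39.8 FPKM in the Dnmt3a controls, a difference of -0.31 ± 0.05 (SE, limma adjusted p = 0.544). Fa2h, which hydroxylates myelin fatty acids, differed by -0.32. The gap junction gene Gjb1 differed by -0.28, and Cldn11, which seals the sheath with tight junctions, by -0.34. Mal, a lipid raft protein, and Opalin, a glycoprotein of mature oligodendrocytes, both differed by -0.46. Trf, transferrin, which carries iron, was at 24.6, 26.8 and 28.4 FPKM against 31.7, 34.1 and 31.3 FPKM. The smallest differences were those of Car2, a carbonic anhydrase, at -0.06 and of Apod, a lipid carrier that other cells express too, at -0.04. The sign of Apod turned when either Dnmt1 control 3 or Dnmt3a control 2 was left out.

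Genes of earlier stages of the lineage did not reach an unadjusted p under 0.05. The 14 newly formed oligodendrocyte genes had a median difference of 0.00, with 7 higher and 7 lower and none at an unadjusted p under 0.05 (0 of 14). Myrf, the transcription factor that switches on myelin genes, was at 7.74, 6.85 and 6.34 FPKM against 8.65, 7.85 and 7.03 FPKM, and the groups overlapped. Sox10, its partner, was at 13.6 to 14.6 FPKM against 13.2 to 16.8 FPKM. The 14 oligodendrocyte progenitor genes had a median of 0.10, with 11 higher and 3 lower, and again none at an unadjusted p under 0.05 (0 of 14). Pdgfra, the growth factor receptor of progenitors, was at 13.6 to 15.1 FPKM against 12.4 to 14.7 FPKM. Without single libraries the progenitor median ran from 0.04 to 0.15. The 21 cholesterol synthesis genes had a median of 0.01. A member of that list, Sc5d, a sterol desaturase on chromosome 9, was at 14.8, 16.0 and 17.9 FPKM against 20.98, 22.7 and 22.7 FPKM, a difference of -0.45 ± 0.08 (SE, limma adjusted p = 0.586).

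Between the CKO cortices, where the lines also differ by the deleted gene, the same myelin list had a median of -2.10. There 705 of 14115 rows were called (4.99%) and 2442 had an unadjusted p under 0.05 (17.3%). The line difference itself differed between controls and CKO for 300 rows (2.13%, limma over all 12 libraries), and these included 20 of the 22 myelin genes. For Mbp the CKO line difference was -2.10 and exceeded the control one by 1.79 ± 0.13 (SE, limma adjusted p = 1.64e-05). The summed myelin level of the Dnmt1 CKO libraries was below that of every control, at 686, 793 and 760 FPKM.

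The promoters of 3 myelin genes are shown because these genes lay apart between the lines without overlap and have the smallest p among members with a single start in the table. The choice was made after the values were seen. Each is the 250 bases before the start, on the gene's strand, from RefSeq (GRCm38.p6), and capitals mark ACAAAG or ACAATG on either strand, words that SOX factors such as Sox10 can bind.
Ugt8a (chr3:125938653-125938902, minus strand): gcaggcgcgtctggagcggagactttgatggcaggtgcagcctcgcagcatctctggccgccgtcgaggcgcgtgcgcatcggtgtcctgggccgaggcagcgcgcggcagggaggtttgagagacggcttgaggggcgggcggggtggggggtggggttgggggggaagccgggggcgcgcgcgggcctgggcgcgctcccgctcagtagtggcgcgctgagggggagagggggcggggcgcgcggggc
Mobp (chr9:120149492-120149741, plus strand): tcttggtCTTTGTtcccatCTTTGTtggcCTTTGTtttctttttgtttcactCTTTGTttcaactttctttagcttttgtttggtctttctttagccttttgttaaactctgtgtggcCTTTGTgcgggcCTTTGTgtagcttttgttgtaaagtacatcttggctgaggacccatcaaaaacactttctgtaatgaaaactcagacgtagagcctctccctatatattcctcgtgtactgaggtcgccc
Ermn (chr2:58052865-58053114, minus strand): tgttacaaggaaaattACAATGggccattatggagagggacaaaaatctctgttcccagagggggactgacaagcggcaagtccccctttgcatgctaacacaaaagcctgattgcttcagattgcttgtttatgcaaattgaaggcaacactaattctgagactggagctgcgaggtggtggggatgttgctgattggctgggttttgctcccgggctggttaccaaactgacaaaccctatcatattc
Mobp held 6 matches, Ermn 1 and Ugt8a 0. Such a word was present in 25.2% of all 32851 promoters of this length and in 11 of the 24 promoters of myelin genes in the table (45.8%), some of which belong to the same gene. A match is a description and not a binding site, and the words differ from gene to gene among members whose line differences were alike, at -0.31 for Ugt8a, -0.36 for Mobp and -0.37 for Ermn.

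Genes of vessel walls and meninges had the opposite sign. All 16 had higher means in the Dnmt1 controls, with a median of 0.24. None was called (0 of 16), and 8 of 16 had an unadjusted p under 0.05 (5.41% of all rows were higher at that level). Of the 16, 8 did not overlap (8.59% of all rows were higher without overlap). The summed level of all 16 was 140, 140 and 146 FPKM against 116, 114 and 129 FPKM. Igf2, an imprinted growth factor made by meninges and choroid plexus, was at 31.1, 32.2 and 33.9 FPKM against 26.0, 26.9 and 27.7 FPKM, a difference of 0.27 ± 0.04 (SE, limma adjusted p = 0.586). The fibrillar collagen genes Col1a1 and Col3a1 differed by 0.43 and 0.52, and Acta2, smooth muscle actin, by 0.37. Rgs5, a pericyte gene, was at 33.4, 30.8 and 30.6 FPKM against 28.4, 25.7 and 28.8 FPKM. Leaving out each library in turn kept the median between 0.22 and 0.28. The 16 endothelial genes had a median of 0.10, with 3 higher at an unadjusted p under 0.05 (5.41% of all rows). That median was 0.04 without Dnmt3a control 2 and 0.16 without Dnmt3a control 3. Bsg, basigin, of the blood-brain barrier, was at 232, 220 and 213 FPKM against 197, 193 and 206 FPKM.

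Blood and choroid plexus transcripts went the same way but varied more. The 6 blood rows, of 5 gene symbols, had a median of 1.08, and 4 of 6 were higher at an unadjusted p under 0.05 (5.41% of all rows). With values summed per symbol it was 3 of 5 (5.45% of all rows in that setting). The haemoglobin gene Hba-a1 was at 8.82, 15.5 and 8.40 FPKM against 5.58, 4.71 and 2.89 FPKM, and Hbb-b1 at 9.61, 10.9 and 7.33 FPKM against 5.43, 5.45 and 3.03 FPKM. Neither overlapped, but adjusted p (limma) was 0.592 for both. Near-identical haemoglobin copies share reads, and Hba-a2 was listed near 0 in all 6 libraries. Of 12 choroid plexus and ependyma rows the median was 0.55, with 2 higher (5.41% of all rows) and 1 lower (2.32%) at an unadjusted p under 0.05. Ttr, transthyretin, the main secreted product of choroid plexus, was at 267, 115 and 163 FPKM against 101, 120 and 4.57 FPKM. The groups overlapped and Dnmt3a control 3 was far below the rest, a difference of 2.15 ± 1.28 (SE, limma adjusted p = 0.741). The smaller choroid genes Folr1 and Kcnj13 did not overlap, at 2.42, 1.06 and 1.58 FPKM against 0.783, 0.506 and 0.287 FPKM for Folr1. The median of the choroid list was 0.25 without Dnmt3a control 3, 0.29 without Dnmt1 control 1 and 0.71 without Dnmt3a control 2. The blood median was 1.26 without Dnmt3a control 2 and 0.75 without Dnmt3a control 3. Leaving out any single library left 2 or 3 of the blood rows higher at an unadjusted p under 0.05 (3.24% to 9.01% of all rows). The part of adhering tissue in these differences was not tested.

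**Figure D3:**
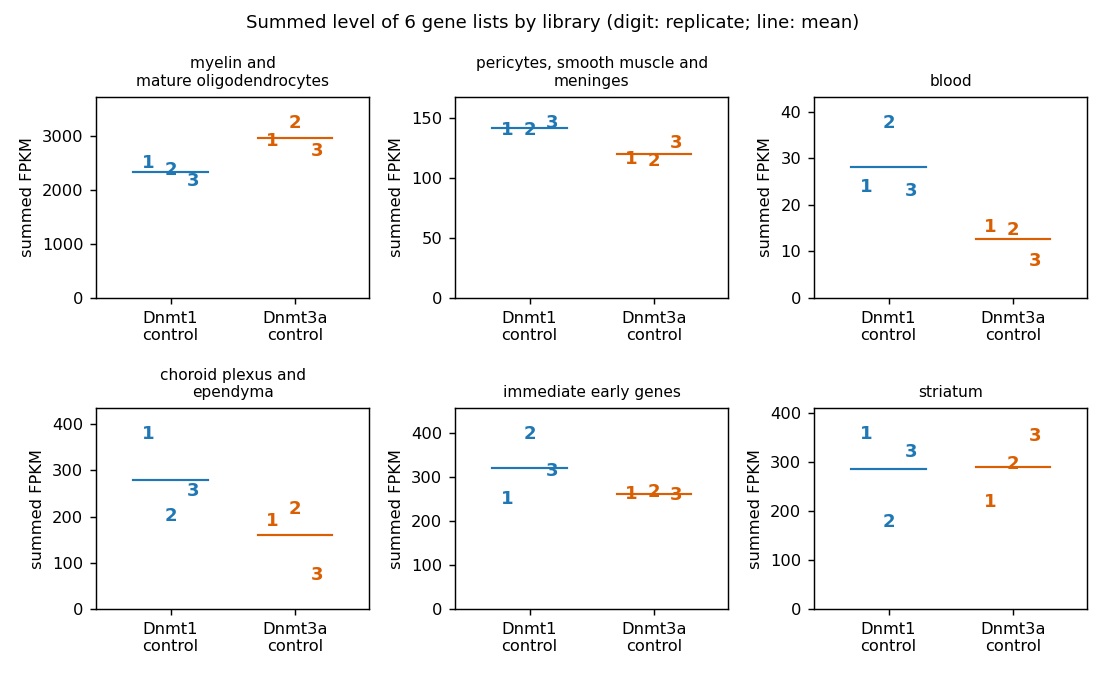
Summed FPKM of 6 gene lists in each control library, with the replicate number as the symbol and a line at the mean of 3. The myelin, vessel and blood sums do not overlap between the lines, whereas the choroid plexus, immediate early and striatal sums overlap.

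Markers of cortex identity matched the labelled tissue in all 6 libraries. Tbr1, a factor of early-born neurons, was at 21.4 to 25.5 FPKM and Mef2c, of maturing excitatory neurons, at 96.3 to 113 FPKM. Of the 14 members 3 were higher at an unadjusted p under 0.05, and they were Mef2c, Cux1 and Cux2 (5.41% of all rows were higher at that level). Of lists for other regions, 3 of 14 hindbrain, cerebellum and spinal cord genes reached the level needed for testing. So did 9 of 14 thalamus and midbrain genes, and all 14 of the hippocampus and of the striatum lists. The 15 deep layer genes had a median of -0.03 and none at an unadjusted p under 0.05 (0 of 15), and the 12 GABA-A receptor genes a median of 0.01 and again none (0 of 12). The 18 interneuron genes had a median of -0.03, and of 0.015 without Dnmt3a control 2. Sst, the somatostatin gene, was at 262, 246 and 236 FPKM against 223, 248 and 245 FPKM, and overlapped. Htr3a, a serotonin receptor of late-born interneurons, was at 1.99, 1.31 and 2.17 FPKM against 2.94, 3.15 and 2.37 FPKM, a difference of -0.62 at an unadjusted p under 0.05.

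The 12 upper layer genes had a median of 0.12, with 3 higher at an unadjusted p under 0.05 (5.41% of all rows). It was 2 of 12 without Dnmt3a control 1 (4.1% of all rows in that setting). It was 1 of 12 without Dnmt3a control 3 (5.7% of all rows) or without both libraries that had Xist (8.57%). The median was 0.08 without Dnmt1 control 3. With all libraries these were Cux1 and Cux2, homeobox factors of upper layer neurons, and the adhesion gene Mdga1. Cux1 was at 19.99, 18.97 and 19.3 FPKM against 15.7, 16.9 and 16.3 FPKM, a difference of 0.25 ± 0.04 (SE, limma adjusted p = 0.586). The other 9 members of the list, Calb1 and Rorb among them, had an unadjusted p over 0.05. In the CKO cortices Cux1 differed by -0.08, and the change in the line difference passed the test at 0.33 ± 0.07 (SE, limma adjusted p = 0.029).

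Immediate early genes, which neurons transcribe soon after activity, varied among the Dnmt1 controls. Arc was at 25.0, 64.2 and 44.5 FPKM in the Dnmt1 controls and at 32.3, 36.4 and 33.8 FPKM in the Dnmt3a controls. Egr1 was at 57.1, 92.5 and 74.7 FPKM against 59.6, 59.0 and 57.1 FPKM. In both genes Dnmt1 control 2 was highest and the Dnmt3a controls were tight. The median of the 19 genes was 0.22, with 2 of 19 higher at an unadjusted p under 0.05 (5.41% of all rows). It was 0.09 without Dnmt1 control 2 and 0.40 without Dnmt1 control 1, where 9 of 19 were higher at that level (3.44% of all rows in that setting). Without Dnmt1 control 2, Dnmt3a control 2 or Dnmt3a control 3 it was 1 of 19 (3.51%, 3.24% and 5.7% of all rows). Egr4 did not overlap, at 8.99, 11.3 and 8.79 FPKM against 7.59, 7.40 and 7.22 FPKM.

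Striatal genes varied within each line. Penk, the enkephalin gene of striatal projection neurons, was at 76.8, 35.3 and 68.7 FPKM in the Dnmt1 controls and at 44.1, 60.3 and 80.4 FPKM in the Dnmt3a controls. Ppp1r1b, which encodes the dopamine-regulated phosphatase inhibitor DARPP-32, was at 121, 56.4 and 102 FPKM against 70.5, 100 and 109 FPKM. Dnmt1 control 2 and Dnmt3a control 1 were the low libraries for both genes. The summed level of the 14 genes was 357, 178 and 322 FPKM against 219, 296 and 354 FPKM, and its mean was 286 ± 95.2 against 290 ± 67.8 FPKM (SD, n = 3 each). The list's median of -0.09 was 0.24 without Dnmt1 control 2, 0.06 without Dnmt3a control 3, -0.28 without Dnmt1 control 1, -0.23 without Dnmt1 control 3 and -0.27 without Dnmt3a control 1, and the sign of Penk turned without Dnmt1 control 2, without Dnmt3a control 3 and without both libraries that had Xist. The low striatal library Dnmt1 control 2 was also the high one for Arc.

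Astrocyte, microglial and interferon response lists had medians between -0.09 and 0.04. The 16 astrocyte genes had a median of 0.04, with 2 of 16 higher at an unadjusted p under 0.05 (5.41% of all rows). Slc1a2, the main glutamate transporter, was at 321 to 349 FPKM over the 6 libraries. Gfap, the astrocyte filament gene, was at 48.5, 47.3 and 49.9 FPKM against 42.5, 40.2 and 44.4 FPKM, a difference of 0.20 at an unadjusted p under 0.05. The 16 microglial genes had a median of 0.04, with 2 higher (5.41% of all rows) and 1 lower (2.32%) at that level. Interferon response genes were low throughout, and their 14 members summed to 28.6 to 37.8 FPKM with a median difference of -0.09 and 11 of 14 lower. Without Dnmt3a control 3 that median was 0.00. Isg15, a ubiquitin-like protein induced by interferon, was at 1.19, 1.07 and 0.979 FPKM against 1.73, 1.23 and 2.28 FPKM.

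Among genes of general metabolism, all 35 ribosomal protein genes had higher means in the Dnmt1 controls, with a median of 0.15, and 13 of 35 had an unadjusted p under 0.05 (5.41% of all rows were higher at that level). The median was 0.12 with median ratio scaling and 0.10 with quantile normalization. The highest sum belonged to Dnmt1 control 1, at 5856 FPKM, against 4790 to 5405 FPKM elsewhere, and the sums overlapped. The number at an unadjusted p under 0.05 was 31 without Dnmt1 control 3, where 9.01% of all rows were higher at that level. It was 7 without Dnmt1 control 1 or 2 (3.44% and 3.51% of all rows in those settings). It was 5 without Dnmt3a control 1 (4.1% of all rows) and 3 without Dnmt3a control 2 (3.24%). The median was 0.08 without Dnmt1 control 1. Rps27 stood apart in the list, at 2.31 to 2.70 FPKM in 3 libraries and 26.3 to 28.5 FPKM in the rest. Of 33 imprinted genes the median was 0.03 (0.004 without Dnmt3a control 2), and Gnas, Meg3, Snrpn and Rian were the highest members.

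**Figure D4:**
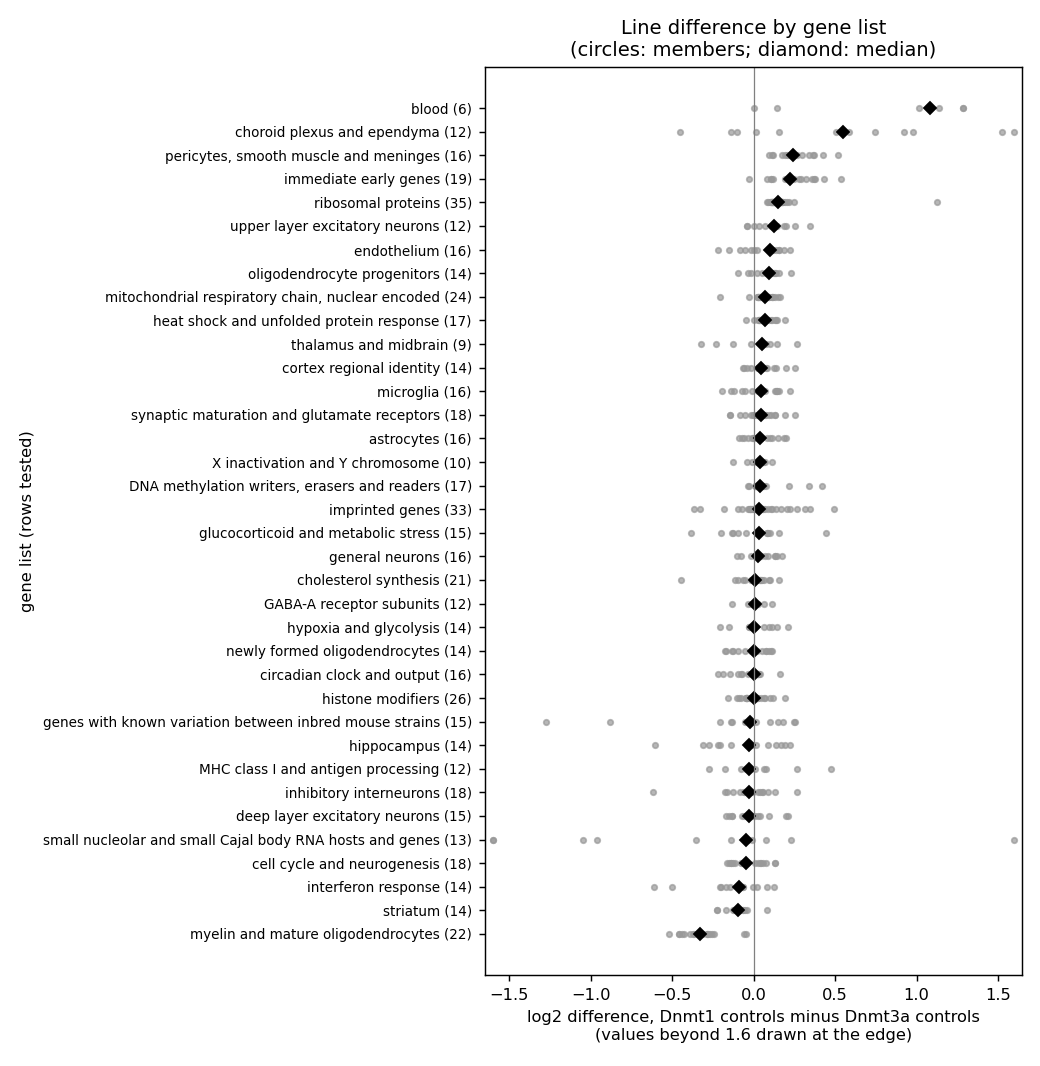
Log2 difference, Dnmt1 controls minus Dnmt3a controls, for the members (circles) and median (diamond) of each gene list with 5 or more rows. The myelin list lies lowest at -0.33 and the blood, choroid plexus and vessel lists highest at 1.08, 0.55 and 0.24, while most lists are centred near 0.

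The rows with small p were not spread evenly over the genome. On chromosome 9, which carries Dnmt1, 103 of 793 rows had an unadjusted p under 0.05 (12.99%), against 969 of 13163 rows on the other chromosomes (7.36%), where single chromosomes ran from 5.24% to 9.29%. On chromosome 12, which carries Dnmt3a, the share was 5.24%. At an unadjusted p under 0.01, chromosome 9 had 37 rows (4.67%), against 224 of all 14115 rows (1.59%). Neighbouring genes are not independent, so these shares are given with no test. None of the chromosome 9 rows was called.

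The excess did not centre on the gene itself. Within 10 Mb of Dnmt1 (chr9:20907209-20959888) 10 of 107 rows had an unadjusted p under 0.05 (9.35%), while the shares were 18.6%, 22.8% and 18.7% for rows starting at 30 to 40, 40 to 50 and 50 to 60 Mb and 15.4% at 100 to 110 Mb. Around Dnmt3a (chr12:3806007-3914443) it was 3 of 41 rows (7.32%). Leaving out single libraries moved the chromosome 9 share between 8.83% (without Dnmt3a control 2) and 15.8% (without Dnmt1 control 3). It stayed above the share over all rows with a position in each case.

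Chromosome 9 rows with an unadjusted p under 0.01 were both higher and lower in the Dnmt1 controls and had varied roles. They included Cryab, Neo1, Sc5d and 2310009A05Rik above, the zinc finger gene Zfp26 at a difference of 0.33, and the junction gene Jam3 at -0.24. Zfp26 lay 0.48 Mb from Dnmt1, measured between the lower coordinates of both genes. Trf and Mobp of the myelin list are on this chromosome too. In the CKO cortices, which are separate libraries, 33 of the 37 had the same sign (89.2%), 18 of these with an unadjusted p under 0.05, and without the 2 myelin genes it was 31 of 35 (88.6%). For rows on other chromosomes or with no position that had an unadjusted p under 0.01 in the controls it was 131 of 187 (70.1%), and for all rows 7978 of 14115 (56.5%). The CKO lines also differ by the deleted gene, so line and deletion cannot be told apart in these signs. Jam3 and Cryab, which are not in the myelin list, differed by -0.72 and -0.76 in the CKO cortices, and Neo1 by 0.10. Leaving out the 2 myelin genes thus does not take out every gene that oligodendrocytes express, Cryab among them. The part of the myelin difference in the chromosome 9 shares and signs was not tested. Which strains the floxed alleles were made in was not analysed here.

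**Figure D5:**
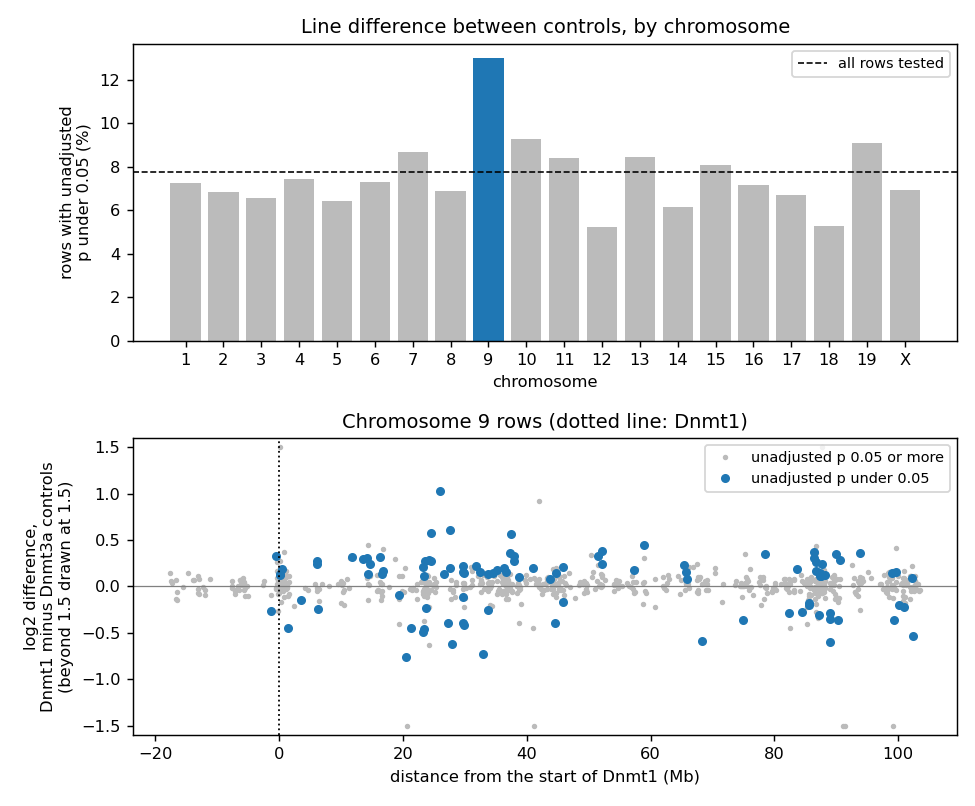
Top, percent of rows on each chromosome with an unadjusted p under 0.05 between the control lines, with a dashed line at 7.74% for all rows tested. Bottom, log2 difference of chromosome 9 rows by distance from Dnmt1 (dotted line), with rows at an unadjusted p under 0.05 in blue. Distance is taken from the lower coordinate of Dnmt1, which the axis calls its start. Chromosome 9 stands at 12.99% and its blue points lie on both sides of 0.

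The highest protein-coding rows over both lines, named after their values were seen, were Mbp, Gapdh, Ppia, Lars2, Calm2, Cpe, Tmsb4x, Cst3, Nrgn and Tuba1a. Gapdh, a glycolytic enzyme, was at 1012 to 1115 FPKM over the 6 libraries. Nrgn, neurogranin, a calmodulin-binding protein of excitatory neurons, was at 805 to 858 FPKM in the Dnmt1 controls and at 742 to 761 FPKM in the Dnmt3a controls. Lars2, a mitochondrial leucine tRNA synthetase, was at 750, 925 and 864 FPKM against 1029, 1366 and 1288 FPKM, a difference of -0.53 ± 0.16 (SE, limma adjusted p = 0.592). Over all rows, however, the 10 highest were 5 miRNA and 5 small nucleolar RNA rows, as were the 10 with the largest SD within a line. Snord37 was listed at 0 in 5 control libraries and at 39005 FPKM in Dnmt3a control 3.

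The protein-coding rows that varied most within a line, again named after their values were seen, included several already described. Eif2s3y and Ddx3y followed Xist, Ttr the choroid plexus, and Drd2, Scn4b and Adora2a the striatal genes. Gm7120 was at 47.9 FPKM in Dnmt3a control 1 and between 4.80 and 10.2 FPKM in every other library. Hddc3 was at 13.1 FPKM in Dnmt1 control 3 and 13.3 FPKM in Dnmt3a control 1 and at 4.80 to 6.83 FPKM in the other controls.

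Of 15 rows of genes known to vary between inbred mouse strains, the median difference was -0.02 and 2 were lower at an unadjusted p under 0.05 (2.32% of all rows), Pttg1 and Erdr1. Erdr1, annotated as a transcribed pseudogene, was at 29.2, 10.2 and 18.8 FPKM against 56.5, 44.4 and 32.0 FPKM, without overlap, a difference of -1.28 ± 0.41 (SE, limma adjusted p = 0.601).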

How the data were processed

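Cortex RNA from postnatal day 16 mice was sequenced after polyA selection, with 3 biological replicates of each of 4 genotypes, so that adjusted p-values measure the spread between these mice. The authors aligned reads with TopHat and made FPKM values per gene with Cufflinks on mm10, and these were deposited as 1 table of 12 libraries. Only FPKM was used, so the depth is unknown and no counting intervals are given. The 302 exact duplicate rows of 23850 were removed, 14115 rows with a mean of 0.5 FPKM or more were kept, and log2(FPKM + 0.1) was fitted with limma 3.58.1 in R 4.3.3 (moderated by trend) with Benjamini-Hochberg adjustment at 10%. The 6 controls were fitted alone, the 6 CKO libraries alone, and all 12 for the difference between both line differences. On simulated data for the control comparison (13907 rows), 182 of 200 changed rows were recovered, which was 79.1% at a log2 change of 0.5, 94% at 1 and 100% at 2. In the same simulation 28 of 210 calls (13.3%) were of unchanged rows, above the 10% set. With none changed, 0 were called. The simulated rows were drawn independently and only for the 13907 rows above 0 in all 6 libraries. The real fit also held rows listed at 0 and did not call Pttg1 at a difference of -0.88. These shares are therefore not those of the real fit.

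Genes were named by rule: the DNA methylation genes, Olig1 and the sex-linked genes, called rows, the rows with the smallest p up to 5 in each direction, the highest members of each list, and the highest and most variable rows. Other members of lists were named as examples after their values were seen. The gene lists and the choice of libraries were made with earlier results of these data known. Groups came from the sample labels. Positions are from GENCODE M21 (GRCm38), found for 13961 rows, and promoters from RefSeq. Alternatives were other pseudocounts, filters, scalings and models, a replicate block, Xist as a covariate and leaving out libraries, and 2 of them (rows listed at 0, both libraries with Xist) were chosen after seeing the data. Python 3.11.15 was used for the summaries. Some genes are not reported here by name, and they stay in the counts, medians and sums of their lists.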

Additional observations from a re-analysis of the deposited data

Results flagged for a closer look

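The line difference itself differed between the control and the CKO cortices, by the test on all 12 libraries (limma with Benjamini-Hochberg adjustment), for 24 of the genes named. Each value is the control line difference minus the CKO line difference on the log2 scale, Dnmt1 line minus Dnmt3a line, and 23 of the 24 were positive. The CKO groups carry different deletions, so this is no test of the lines alone. Among myelin genes the values were 2.532 for Opalin, 2.237 for Mobp, 2.148 for Mal, 2.081 for Mog, 2.025 for Mag and 2.012 for Ermn. They were 1.832 for Ugt8a, 1.787 for Mbp, 1.782 for Fa2h, 1.761 for Cldn11, 1.452 for Gjb1, 1.45 for Gsn, 1.385 for Cnp, 1.244 for Trf and 0.5247 for Car2. The adjusted p of these genes was lowest for Ugt8a at 6.85e-07 and highest for Car2 at 0.0212. Olig1, the gene with the Cre insertion in CKO mice, had 0.6996. The lineage transcription factor genes Myrf and Sox10 had 1.22 and 0.8568. Among other genes the values were 0.4476 for Gm10012, 0.3311 for Cux1 and 0.3192 for Esam, an adhesion gene of endothelium, and these came from a positive difference in controls and a negative one in CKO cortices. Jam3 had 0.4819 and Slc1a2 0.2062, each lower in the Dnmt1 line in controls and further so in CKO cortices. Isg15 had -1.664, with a negative difference in controls and a positive one in CKO cortices.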

How the results depend on the processing

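The number of called rows between the control lines was 1 and became 0 with a pseudocount of 1, with all 12 libraries in 1 model, with the replicate block and with Xist as a covariate. It was 7 with no filter on low values, 6 with limma's robust option and 9 with both libraries with Xist left out, and 1 to 4 when single libraries were left out. The 1092 rows with an unadjusted p under 0.05 became 673 to 1584 without single libraries. Replicate numbers are shared by the lines. Deviations of same-numbered controls correlated with r of 0.262, -0.0451 and 0.379 for replicates 1, 2 and 3. The highest r of these Dnmt1 controls with a Dnmt3a control of another number was 0.21, 0.0887 and -0.184. Dnmt1 controls 1 and 3 thus correlated most with the same number and Dnmt1 control 2 did not. The numbers were not taken as pairs in the main fit. The replicate block left 946 rows with an unadjusted p under 0.05, and the 705 rows called between CKO cortices became 399 with it and 334 to 723 without single libraries. The blood median was 0.723 with a pseudocount of 1, and the ribosomal median was 0.233 with both libraries with Xist left out and 0.0828 to 0.203 without single libraries. The upper layer median ran from 0.0798 to 0.142. Without single libraries Olig1 ran from -0.099 to 0.0396, Apod from -0.134 to 0.0551 and Penk from -0.286 to 0.281, and Penk was 0.0139 with both libraries with Xist left out. The cause was not tested. Of 59 genes under 22 settings, these 3 turned direction in 7 cases, and Snora43 lost its call in 8. FPKM gives no depth, so the precision of low rows is not known.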
